A study of Mus musculus with 5 samples.

Results

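The genes described here are 43 mitotic genes of the mouse, chosen by name for what their proteins do: they build the spindle, hold chromosomes to it, condense them, guard their separation and divide the cell. Cyclins, cyclin-dependent kinases and kinesins other than *Cenpe* were left out of the choice. No measured value served as a criterion, but earlier results of these data were known when the genes were chosen. The 43 genes stand among 18193 genes tested and are read by 100 of the 45101 probe sets of an Affymetrix mouse genome array. They were sorted into 8 groups of 4 to 8 genes: checkpoint, anaphase onset and cohesion release, centromere and kinetochore, chromosomal passenger complex, condensin and chromosome structure, spindle assembly, cytokinesis, and mitotic entry regulators.

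RNA came from optic nerves of C57BL/6 mice aged P35 to P45, which were taken out with the retina attached and kept for 3 days in organotypic culture with LY294002, an inhibitor of phosphoinositide 3-kinases. The study asked how a low and a high concentration act on adult white matter. Per the labels, 3 arrays held nerves given 0.5 µM (L-LY29) and 2 arrays nerves given 50 µM (H-LY29); the study's methods name another concentration for L-LY29 in adult nerves, and the labels spell the compound LY294002 in their titles and LY295002 in their treatment entries. Both groups shared strain, age, culture and compound, saline-treated nerves are not analysed here, and no source used here says how nerves and mice were divided among arrays, so that p-values measure the spread between arrays, which may be technical.

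Mitotic transcripts are made in bursts: most of these genes are transcribed late in the cell cycle and silent in cells that have left it, so that their summed level in a tissue is widely read as a sign of dividing cells. In the adult optic nerve the cells known to divide are mainly oligodendrocyte precursors (OPCs), with microglia, astrocytes, vascular cells and fibroblasts of the sheath able to divide after injury. The cell cycle genes homology region (CHR), with the core TTTGAA, is the promoter element through which the DREAM and MuvB complexes act on many of them, often beside CCAAT boxes bound by NF-Y.

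Arrays of the same dose resembled each other, with Pearson correlations over all probe sets of 0.99 to 0.995, against 0.882 to 0.892 between doses. The doses also differed in array preparation. Poly-A control transcripts, which are added to the RNA before labelling, averaged 10.22 log2 units on the L-LY29 arrays against 3.17 on the H-LY29 arrays, and the difference between 3' and 5' probe sets of actin averaged 0.43 and 0.92. Preparation and dose therefore cannot be told apart. The poly-A values of the H-LY29 arrays, 2.34 to 4.30 log2 units, served as a guide to low signal, and where a mean lay in that range the size of a difference was not read as a fold change. Leaving out 1 H-LY29 array leaves the other alone in its group, so that the spread then comes from the L-LY29 arrays only and the lone array is assumed to vary like them. Such fits are given by their differences, with an adjusted p only where a call was lost.

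The promoters of 10 of the genes are printed to show where the CHR core and CCAAT boxes lie in them. They are the last 70 bases before the RefSeq start, 5′ to 3′ on the strand of the gene in build GRCm38.p6. Capitals mark the CHR core TTTGAA or its reverse complement TTCAAA and the CCAAT box or its reverse complement ATTGG. Where the table lists more than 1 start, as for *Bub3*, *Prc1* and *Cep55*, a start with a CHR core in the 70 bases before it was taken. The genes were picked for a CHR core within these bases, and they include genes lower and higher in L-LY29 and 1 that did not pass the test, *Cdc20*. The windows were *Ube2c* at chr2:164769859-164769928 (plus strand), *Cdc20* at chr4:118437344-118437413 (minus), *Ncapg* at chr5:45669855-45669924 (plus), *Prc1* at chr7:80294406-80294475 (plus), *Bub3* at chr7:131560300-131560369 (plus), *Top2a* at chr11:99024190-99024259 (minus), *Ncapg2* at chr12:116405366-116405435 (plus), *Espl1* at chr15:102296223-102296292 (plus), *Cdca5* at chr19:6085027-6085096 (plus) and *Cep55* at chr19:38054971-38055040 (plus).
Ube2c: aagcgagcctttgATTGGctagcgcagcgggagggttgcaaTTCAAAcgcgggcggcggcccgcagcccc
Cdc20: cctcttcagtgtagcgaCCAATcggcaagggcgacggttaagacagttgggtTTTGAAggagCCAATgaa
Ncapg: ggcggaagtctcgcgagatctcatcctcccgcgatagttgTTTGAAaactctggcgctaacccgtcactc
Prc1: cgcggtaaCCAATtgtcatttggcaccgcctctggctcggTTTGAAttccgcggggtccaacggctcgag
Bub3: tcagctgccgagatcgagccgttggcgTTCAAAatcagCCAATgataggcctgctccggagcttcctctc
Top2a: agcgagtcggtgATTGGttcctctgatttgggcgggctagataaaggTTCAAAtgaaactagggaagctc
Ncapg2: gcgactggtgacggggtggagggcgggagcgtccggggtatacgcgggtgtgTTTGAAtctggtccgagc
Espl1: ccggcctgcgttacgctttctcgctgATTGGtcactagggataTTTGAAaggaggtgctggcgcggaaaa
Cdca5: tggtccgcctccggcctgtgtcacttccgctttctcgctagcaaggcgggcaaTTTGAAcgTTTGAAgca
Cep55: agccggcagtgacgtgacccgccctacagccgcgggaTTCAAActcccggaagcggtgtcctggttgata

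Most of the 43 genes were lower at the low dose. Of the 43, 32 (74.4%) were lower in L-LY29 and 6 (14%) higher by limma, at a Benjamini-Hochberg adjusted p under 0.05 over all genes tested, which leaves 5 that did not pass. Over all 18193 genes, 64.7% passed in either direction, 35.6% were lower and 29.1% were higher. The median difference, L-LY29 minus H-LY29, was -1.71 log2 units over the members and -0.02 over all genes. A difference of at least 3 log2 units downwards was found for 8 members (18.6%) and for 2.56% of all genes, and 4 members (9.3%) passed 4 units against 0.687% of all genes. Among these members, *Bub1*, *Ncapg*, *Mki67* and *Tpx2* had a L-LY29 mean in the poly-A range, so that their sizes are not fold changes. The arrays of both doses did not overlap for 41 members, 34 of them with L-LY29 lower. Over all genes 76.9% did not overlap and 40.9% did so with L-LY29 lower. The 41 include *Mad2l1*, *Dlgap5* and *Smc4*, which did not pass. For *Smc4* the nearest arrays read 9.2533 in L-LY29 and 9.25248 in H-LY29. On the single arrays the mean signal of the members was 5.63, 5.65 and 5.63 in L-LY29, and 7.62 and 6.98 in H-LY29. Fewer dividing cells and less of these RNAs per cell cannot be told apart in bulk nerves.

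**Figure D1:**
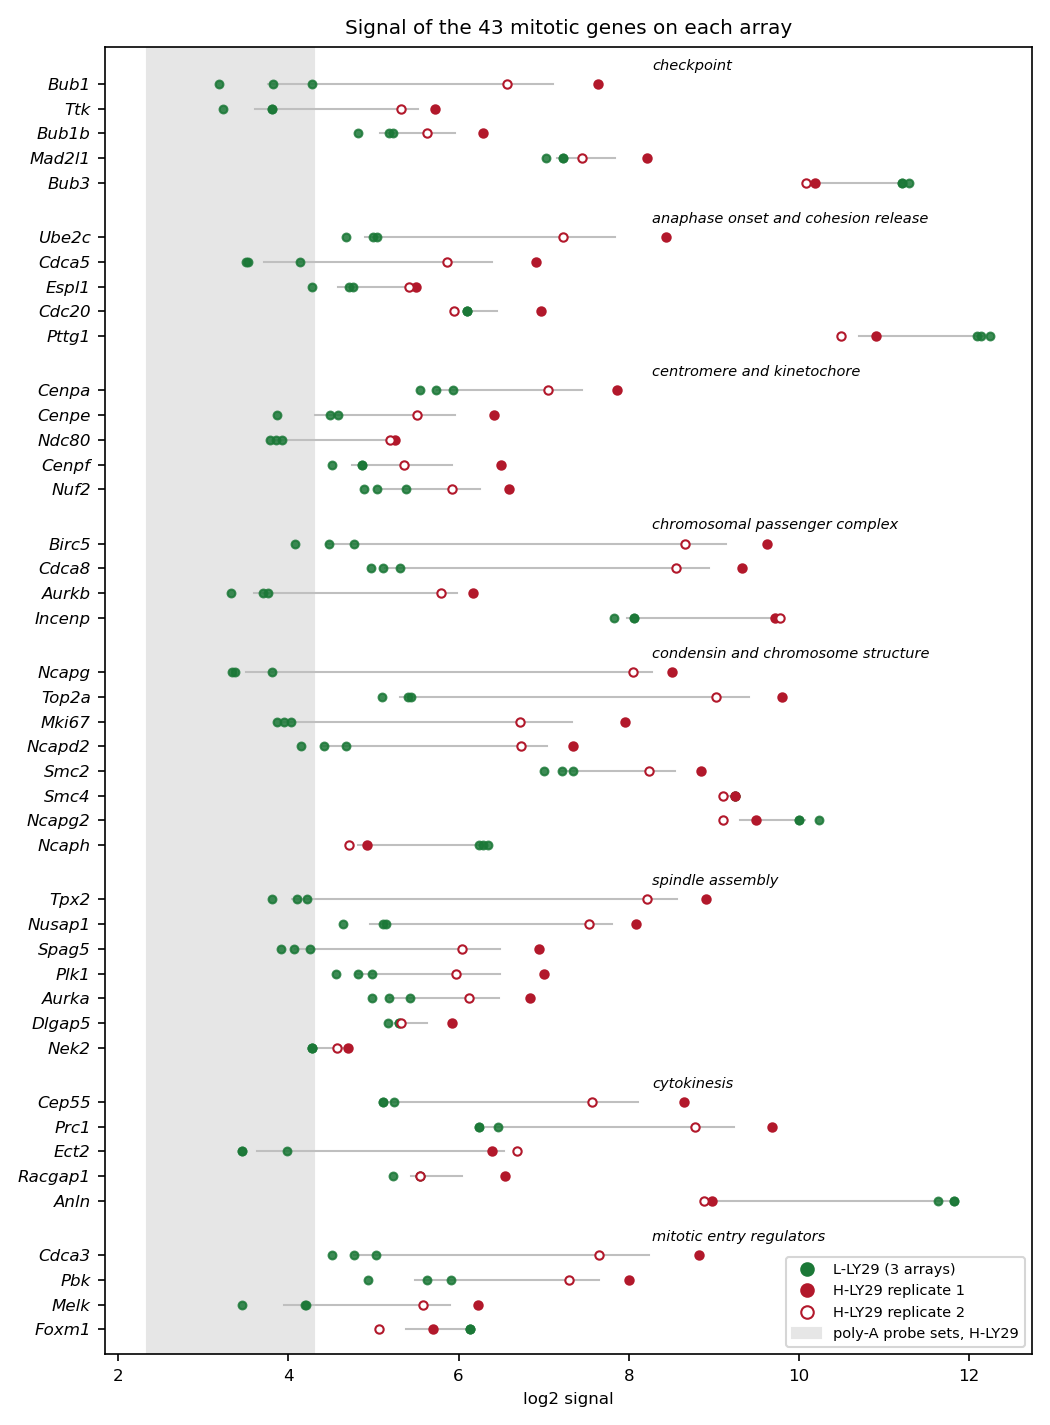
Log2 signal of each of the 43 genes on the 3 L-LY29 arrays (green) and the 2 H-LY29 arrays (red, filled for replicate 1 and open for replicate 2), by function, with a grey line between the dose means and a grey band over the poly-A values of the H-LY29 arrays. In 12 genes the L-LY29 mean lies in the band, and in *Anln*, *Pttg1*, *Bub3*, *Ncapg2*, *Ncaph* and *Foxm1* the green points lie to the right of the red ones.

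The spindle checkpoint holds anaphase back until every chromosome is attached. On their brightest probe sets, 3 of its 5 genes were lower, 1 was higher and 1 did not pass. *Bub1*, the kinase that recruits the other checkpoint proteins to kinetochores, read 7.64 and 6.57 log2 units on the H-LY29 arrays and 3.18, 4.27 and 3.82 on the L-LY29 arrays. Its doses lay far apart, with a difference of -3.35 (SE 0.47, adjusted p = 0.00318) and a L-LY29 mean in the poly-A range. *Ttk* (Mps1), the kinase at the top of the checkpoint, read 5.73 and 5.33 against 3.80, 3.23 and 3.80, a difference of -1.92 (SE 0.24, adjusted p = 0.00225), again with a L-LY29 mean in that range. *Bub1b* (BubR1), part of the complex that restrains the anaphase-promoting complex, was nearer: 6.29 and 5.63 against 5.18, 4.82 and 5.23. Its difference was -0.89 (SE 0.25, adjusted p = 0.0324), and the call was lost without H-LY29 replicate 1 (-0.56, adjusted p = 0.139) and without any 1 of the L-LY29 arrays (-0.96 to -0.76, adjusted p = 0.0708 to 0.0907). *Mad2l1* (Mad2), the inhibitor that binds Cdc20, read 8.22 and 7.45 against 7.23, 7.23 and 7.02, which did not pass (difference -0.68, 95% interval -1.34 to -0.02, adjusted p = 0.0683). The difference was -1.06 without H-LY29 replicate 2 and -0.30 without replicate 1. *Bub3*, the adaptor that carries Bub1 and BubR1 to the kinetochore, went the other way on its brightest probe set, with 10.19 and 10.08 against 11.20, 11.29 and 11.20 (difference 1.10, SE 0.06, adjusted p = 0.000204). Its probe sets did not move together: a second bright one was lower by the test, at -0.45, and a dim one at -1.43, and the others did not pass. A direction for *Bub3* as a whole therefore depends on the probe set.

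Genes of anaphase onset differed in direction. *Ube2c*, the ubiquitin-conjugating enzyme of the anaphase-promoting complex, read 8.44 and 7.23 in H-LY29 and 4.99, 5.05 and 4.68 in L-LY29, a difference of -2.93 (SE 0.39, adjusted p = 0.00279). *Cdca5* (sororin), which protects cohesin on sister chromatids, read 6.91 and 5.86 against 4.13, 3.52 and 3.50 (difference -2.67, SE 0.39, adjusted p = 0.0037). Its L-LY29 mean lay in the poly-A range, and its other probe set, nearly as bright, did not pass (-0.45). With quantile normalization, after which the brightest probe set was picked anew, the difference was -0.44 and did not pass (adjusted p = 0.125). In the deposited values every L-LY29 array lay below both H-LY29 arrays on the brightest probe sets of *Ube2c* and *Cdca5*. *Espl1* (separase), the protease that cuts cohesin, showed a smaller difference, 5.50 and 5.42 against 4.71, 4.76 and 4.28 (difference -0.87, SE 0.17, adjusted p = 0.0103). Without H-LY29 replicate 1 or 2 its difference stayed at -0.84 or -0.91, while the adjusted p was 0.0872 or 0.0733. *Pttg1* (securin), the inhibitor of separase, was higher in L-LY29, with 12.09, 12.24 and 12.13 against 10.91 and 10.49. The difference was 1.46 (SE 0.14, adjusted p = 0.000895), and all 3 of its probe sets were higher, by 1.28 to 2.63. *Cdc20*, the activator of the anaphase-promoting complex, read 6.96 and 5.95 in H-LY29 and 6.09 on every L-LY29 array. The doses overlapped and it did not pass (difference -0.36, 95% interval -1.20 to 0.47, adjusted p = 0.356). The 2 H-LY29 arrays decided its sign: the difference was -0.87 without replicate 2 and 0.15 without replicate 1, and quantile normalization also turned it, to 0.072.

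All 5 centromere and kinetochore genes were lower in L-LY29 on their brightest probe sets, with a median difference of -1.37. *Ndc80*, the microtubule-binding subunit of the outer kinetochore, read 5.26 and 5.19 against 3.92, 3.79 and 3.85, the tightest replicates of the group (difference -1.37, SE 0.08, adjusted p = 0.00024), with a L-LY29 mean in the poly-A range. *Nuf2*, its partner in the NDC80 complex, read 6.59 and 5.92 against 5.38, 5.04 and 4.89 (difference -1.15, SE 0.26, adjusted p = 0.0162). The other subunits of that complex, *Spc24* and *Spc25*, which are not among the 43 genes, were lower as well, at -1.57 and -1.16. *Cenpa*, the histone H3 variant that marks centromeres, read 7.86 and 7.05 against 5.55, 5.94 and 5.74 (difference -1.71, SE 0.28, adjusted p = 0.00534). Its other 2 probe sets, both dimmer, did not pass (-0.095 and 0.052). *Cenpe*, the kinetochore-bound kinesin that moves chromosomes to the metaphase plate, read 6.41 and 5.51 against 4.58, 4.49 and 3.86. *Cenpf*, a large kinetochore protein, read 6.49 and 5.36 against 4.87, 4.51 and 4.87. Their differences were -1.65 (SE 0.37, adjusted p = 0.0153) and -1.18 (SE 0.37, adjusted p = 0.0446). Without H-LY29 replicate 1 the calls of *Cenpe*, *Cenpf* and *Nuf2* were lost, at differences of -1.19, -0.61 and -0.82 (adjusted p = 0.0959, 0.102 and 0.0854). That of *Cenpf* was also lost without any 1 L-LY29 array (-1.24 to -1.06, adjusted p = 0.101 to 0.129), and that of *Nuf2* without L-LY29 replicate 2 or 3 (-1.12 and -1.04, adjusted p = 0.0600 and 0.0581). A dimmer probe set of *Cenpf* with both means in the poly-A range was higher, at 1.25, and the mean over its probe sets did not pass (-0.18, adjusted p = 0.636).

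The chromosomal passenger complex, which corrects wrong attachments of chromosomes and later triggers cleavage, was lower in all 4 of its genes, with the lowest median of the 8 groups (-3.10). *Birc5* (survivin), which docks the complex on centromeres, read 9.62 and 8.66 in H-LY29 and 4.77, 4.47 and 4.08 in L-LY29. The difference of -4.70 (SE 0.37, adjusted p = 0.000522) was the largest downwards among members with both means above the poly-A range. *Cdca8* (borealin), its binding partner, read 9.33 and 8.56 against 5.11, 4.97 and 5.31, a difference of -3.81 (SE 0.26, adjusted p = 0.000388), and all 3 of its probe sets were lower. In both genes every L-LY29 array lay far below both H-LY29 arrays. *Aurkb*, the kinase of the complex, read 6.17 and 5.79 against 3.33, 3.70 and 3.76 (difference -2.38, SE 0.19, adjusted p = 0.000573), with a L-LY29 mean in the poly-A range. Its other probe set, with both means in that range, did not pass (-0.60). *Incenp*, the scaffold that activates the kinase, kept a clear signal at both doses, 9.72 and 9.78 against 7.83, 8.06 and 8.06 (difference -1.76, SE 0.10, adjusted p = 0.000239), while its other 4 probe sets, all dimmer, did not pass.

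Condensin, the ring complex that compacts mitotic chromosomes, did not move as a unit. *Ncapg*, a subunit of condensin I, read 8.5 and 8.04 in H-LY29 against 3.34, 3.37 and 3.81 in L-LY29 (difference -4.77, SE 0.22, adjusted p = 0.000168), with a L-LY29 mean in the poly-A range. *Ncapd2*, from the same complex, read 7.34 and 6.73 against 4.68, 4.14 and 4.41 (difference -2.63, SE 0.26, adjusted p = 0.001). Each of these genes has a dimmer probe set that did not pass (-0.46 and 0.18). *Ncaph*, the kleisin that closes the condensin I ring, was higher on its brightest probe set, 4.92 and 4.71 against 6.23, 6.35 and 6.29 (difference 1.47, SE 0.10, adjusted p = 0.000408); its other probe set had a difference of -0.82 and did not pass. *Ncapg2*, of condensin II, was higher by a smaller amount, 9.5 and 9.10 against 10.00, 10.23 and 10.00 (difference 0.77, SE 0.15, adjusted p = 0.00972), and just missed without H-LY29 replicate 2 (0.58, adjusted p = 0.0505). Of the ATPases shared by both condensins, *Smc2* was called on its brightest probe set and *Smc4* was not. *Smc2* read 8.85 and 8.24 against 7.01, 7.34 and 7.22 (difference -1.36, SE 0.22, adjusted p = 0.00516), and 4 of its 5 probe sets were lower, the largest at -3.58. *Smc4* read 9.25 and 9.11 against 9.25 on every L-LY29 array and did not pass (difference 0.07, 95% interval -0.10 to 0.25, adjusted p = 0.352). It passed as higher with equal array medians (0.29) or quantile normalization (0.44), and without H-LY29 replicate 1 the difference was 0.15. Another probe set of *Smc4* was lower, at -0.68, and the mean over its probe sets passed as lower (-0.30, adjusted p = 0.0429). A direction for *Smc4* therefore depends on the probe set and the scaling.

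Chromosome genes outside condensin stood with the largest differences. *Top2a*, the topoisomerase that untangles sister chromatids, read 9.80 and 9.02 in H-LY29 and 5.10, 5.40 and 5.44 in L-LY29 (difference -4.10, SE 0.27, adjusted p = 0.00034). Its other 2 probe sets read between means of 3.72 and 4.87 at both doses and did not pass. *Mki67*, which coats mitotic chromosomes and is the source of the Ki-67 proliferation antigen, read 7.95 and 6.72 against 4.03, 3.95 and 3.87 (difference -3.39, SE 0.38, adjusted p = 0.00159). Its L-LY29 mean lay in the poly-A range, and its H-LY29 arrays were 1.23 log2 units apart, the widest gap of the 43 genes.

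Of the 7 spindle assembly genes, 6 were lower and *Dlgap5* did not pass. *Tpx2*, which activates Aurora A on spindle microtubules, read 8.91 and 8.21 against 3.80, 4.10 and 4.22 (difference -4.52, SE 0.26, adjusted p = 0.000252), with a L-LY29 mean in the poly-A range. Its probe sets disagreed: a second was lower, at -2.57, and 2 dim ones were higher, at 1.93 and 1.29, from H-LY29 means of 3.24 and 2.88. *Nusap1*, a bundler of microtubules near chromatin, read 8.09 and 7.53 against 4.64, 5.14 and 5.11 (difference -2.84, SE 0.25, adjusted p = 0.000755), and its other probe set was lower too, at -0.33. *Spag5* (astrin), a spindle and kinetochore protein, read 6.95 and 6.04 against 4.06, 3.91 and 4.25 (difference -2.42, SE 0.30, adjusted p = 0.00218), with a L-LY29 mean in the poly-A range. Its other 2 probe sets, both dimmer, did not pass (-0.013 and -1.20). The mitotic kinases showed smaller differences, and a dimmer probe set of *Aurka*, with both means in the poly-A range, did not pass (-0.016). *Plk1*, which drives centrosome maturation and mitotic entry, read 7.01 and 5.98 against 4.82, 4.99 and 4.56 (difference -1.70, SE 0.35, adjusted p = 0.0111). *Aurka* (Aurora A), the kinase of the spindle poles, read 6.83 and 6.12 against 5.18, 5.42 and 4.98 (difference -1.28, SE 0.26, adjusted p = 0.0116; without H-LY29 replicate 1, -0.93 and adjusted p = 0.0525). *Nek2*, which separates centrosomes, had a low signal throughout, at 4.70 and 4.57 against 4.28 on every L-LY29 array, a small difference that passed (-0.36, SE 0.07, adjusted p = 0.0125) but not with equal array medians (-0.14), and its 3 dimmer probe sets were lower, higher and not called. *Dlgap5* (HURP), a stabiliser of kinetochore microtubules, read 5.92 and 5.33 against 5.30, 5.18 and 5.30 (difference -0.37, 95% interval -0.89 to 0.16, adjusted p = 0.171). Without H-LY29 replicate 2 the difference was -0.66, and without replicate 1 it was -0.07.

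**Figure D2:**
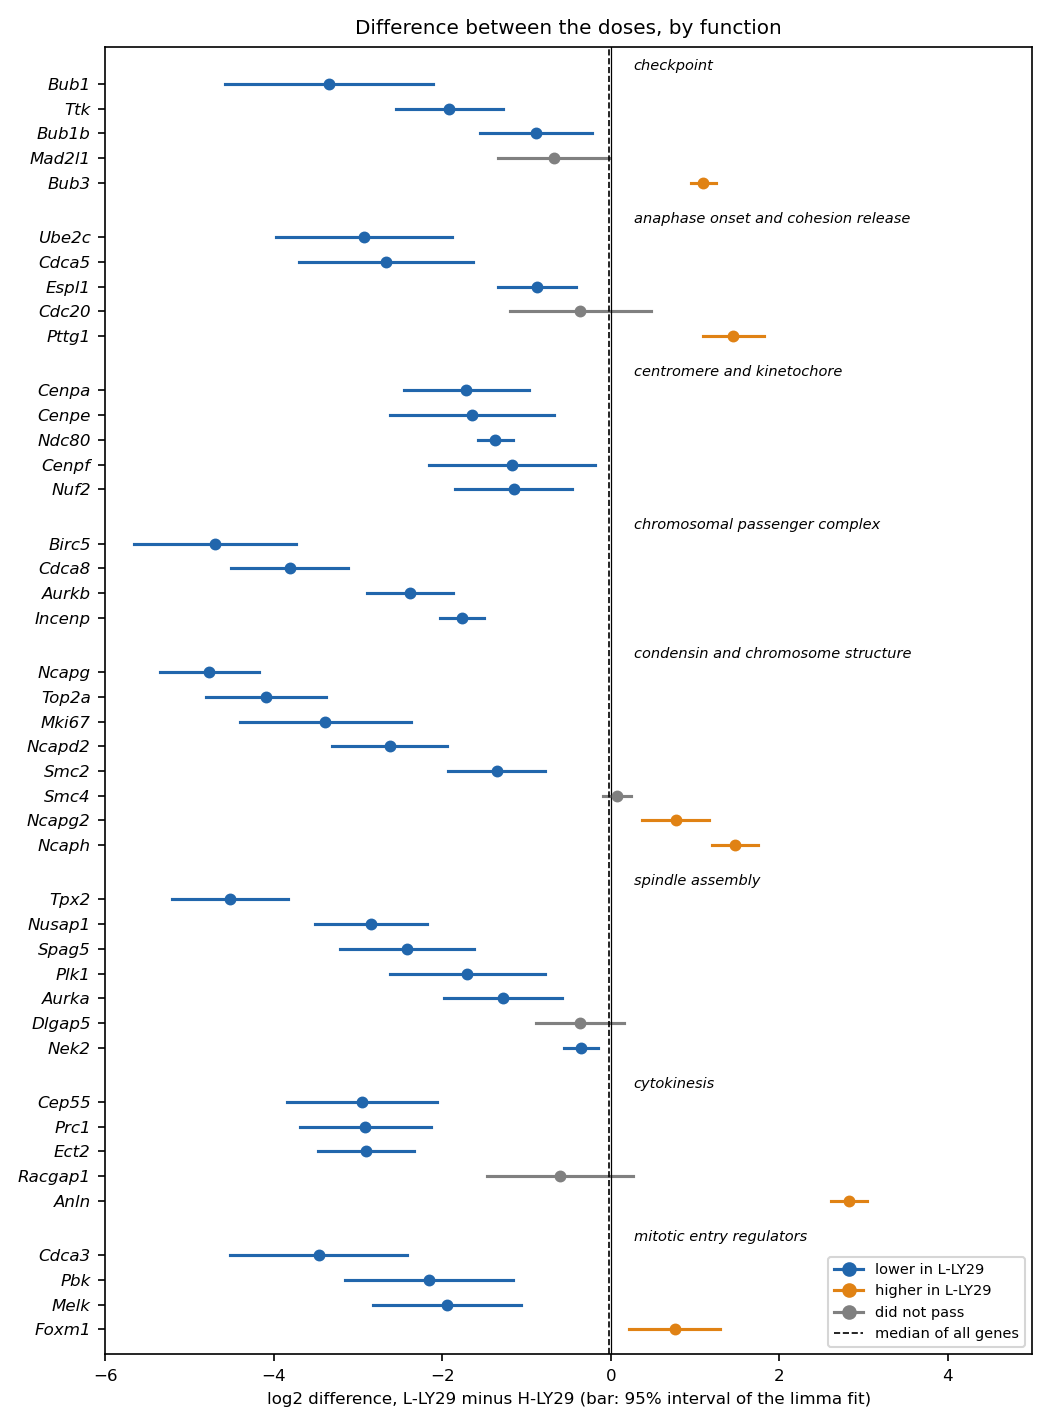
Difference in log2 signal between the doses (L-LY29 minus H-LY29) for the 43 genes by function, with the 95% interval of the limma fit; blue genes were lower, orange higher and grey did not pass. All genes of the centromere and passenger complex groups lie left of 0, and *Anln* is farthest to the right at 2.83.

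Cytokinesis held the largest difference upwards of the 43 genes. *Anln* (anillin), the scaffold of the contractile ring, which oligodendrocytes also use to place septin filaments in myelin, was bright and higher in L-LY29, at 11.82, 11.64 and 11.82 against 8.98 and 8.88. The difference was 2.83 (SE 0.08, adjusted p = 0.000102), and its other probe set was higher too, at 2.66. The rest of the group did not follow it. *Cep55*, which recruits the abscission machinery to the midbody, read 8.64 and 7.57 against 5.12, 5.24 and 5.11 (difference -2.95, SE 0.34, adjusted p = 0.00163). Its other probe set, with both means in the poly-A range, did not pass (-1.07). *Prc1*, which bundles the central spindle, read 9.69 and 8.78 against 6.24, 6.47 and 6.24 (difference -2.91, SE 0.29, adjusted p = 0.00109), and its other probe set was lower still, at -4.05. *Ect2*, the exchange factor that starts furrowing at the cleavage site, read 6.39 and 6.68 against 3.46, 3.98 and 3.46 (difference -2.90, SE 0.21, adjusted p = 0.000449), with a L-LY29 mean in the poly-A range. These genes had L-LY29 arrays well below both H-LY29 arrays. *Racgap1*, which anchors Ect2 at the central spindle, overlapped between doses on its brightest probe set, 6.54 and 5.55 against 5.55, 5.23 and 5.55 (difference -0.60, 95% interval -1.47 to 0.27, adjusted p = 0.174). Another probe set of *Racgap1* was lower, at -2.59, and the difference of the brightest was -1.10 without H-LY29 replicate 2 and -0.11 without replicate 1.

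Among the regulators of mitotic entry, *Cdca3*, an adaptor for the destruction of the mitotic inhibitor Wee1, read 8.83 and 7.65 in H-LY29 against 5.03, 4.77 and 4.51 in L-LY29 (difference -3.47, SE 0.40, adjusted p = 0.00165). Its dimmer probe sets were higher in L-LY29, at 2.59 and 1.15, from H-LY29 means of 2.56 and 2.46, so that the mean over its probe sets had a difference of 0.09. *Pbk*, a mitotic kinase, read 8.0 and 7.30 against 4.94, 5.62 and 5.91 (difference -2.16, SE 0.37, adjusted p = 0.0066). *Melk*, another kinase that peaks in mitosis, read 6.22 and 5.58 against 4.21, 3.46 and 4.20 (difference -1.95, SE 0.33, adjusted p = 0.00614), with a L-LY29 mean in the poly-A range. Without H-LY29 replicate 1 the differences were -1.81 for *Pbk* and -1.63 for *Melk*, and both missed the threshold (adjusted p = 0.0685 and 0.064). *Foxm1*, the transcription factor that activates many late cell cycle genes together with MuvB, was higher on its brightest probe set, at 6.14 on each L-LY29 array against 5.70 and 5.07 (difference 0.76, SE 0.20, adjusted p = 0.0274). Without any 1 L-LY29 array the difference stayed at 0.76, since the L-LY29 values are equal, and missed the threshold with fewer arrays (adjusted p = 0.0809 to 0.0844). The difference was 0.44 without H-LY29 replicate 2, and another probe set of *Foxm1* was lower, at -0.68. Its direction therefore depends on the probe set.

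Taking every probe set by itself, 51 of the 100 were lower and 15 higher, while 34 did not pass, against 33.2% lower and 28.9% higher among the 34945 probe sets that name 1 gene. For 18 of the 100 both dose means lay in the poly-A range. Of the 31 genes with more than 1 probe set, 7 had all of them lower; the share of such genes over the whole array was not counted. Among 16 genes with at least 2 called probe sets, 6 were called in both directions (*Bub3*, *Cenpf*, *Tpx2*, *Nek2*, *Foxm1* and *Cdca3*); over all genes with at least 2 called probe sets this share was 45.3%. For *Cenpf*, *Tpx2*, *Nek2* and *Cdca3* at least 1 probe set of the higher kind had both means in the poly-A range. Letting the second brightest probe set stand for a gene moved the members' median to -0.68, with 22 lower and 5 higher, while 30.2% of all genes were lower.

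**Figure D3:**
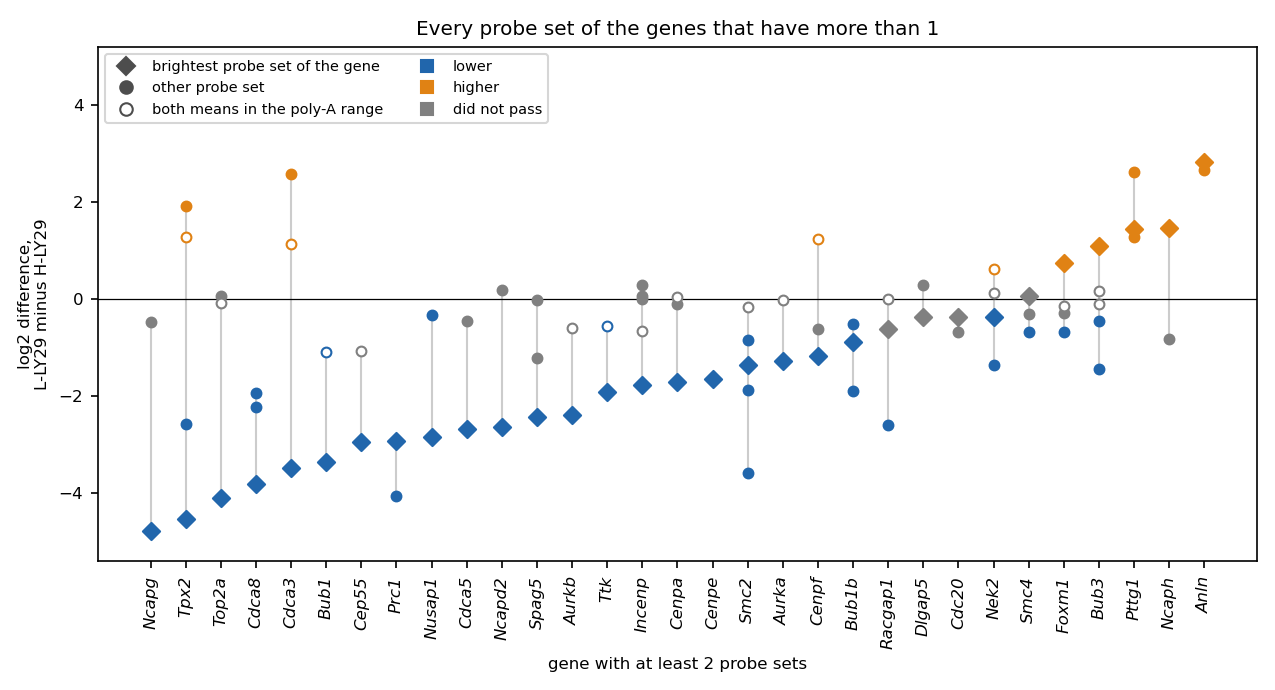
Difference in log2 signal (L-LY29 minus H-LY29) of every probe set of the 31 genes that have more than 1, ordered by the brightest probe set (diamond); open circles have both dose means in the poly-A range. *Smc2*, *Cdca8*, *Prc1*, *Pttg1* and *Anln* keep 1 direction among their called probe sets, and *Tpx2* and *Cdca3* run from far below 0 to above it.

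The members also separated the 2 H-LY29 arrays. Replicate 1 was above replicate 2 for 41 of the 43 genes (95.3%), with *Ect2* and *Incenp* the exceptions, by a median of 0.66 log2 units. Over all genes the share was 52.9% and the median 0.02. The gap exceeded 0.5 log2 units for 29 members (67.4%) and for 7.32% of all genes. It was widest for *Mki67*, *Ube2c* (1.22), *Cdca3* (1.18) and *Cenpf* (1.14). In 32 of the 43 genes these arrays lay farther apart than the lowest and highest of the 3 L-LY29 arrays, a count not made over all genes. *Cdc20*, *Smc4*, *Nek2* and *Foxm1* had 1 and the same value on all L-LY29 arrays, a form of tie that is common in the deposited values, so that their spread there is understated. The other list of mitotic genes was higher in replicate 1 for 45 of 48 genes (median 0.35). Markers of OPCs and of fibroblasts were higher in replicate 1 for all 10 genes of each list (medians 0.23 and 0.23) and microglia markers for 8 of 9 (median 0.25). The other marker lists were mixed: mature oligodendrocyte 6 of 9 (0.081), ocular surface epithelium 6 of 10 (0.39), astrocyte 5 of 10 (0.028), pericyte and smooth muscle 5 of 10 (-0.064) and endothelial 4 of 9 (-0.22). Genes of the gamma-tubulin and augmin complexes were higher for 11 of 15 (median 0.072) and MuvB and DREAM genes for 6 of 11 (0.013). Subunits of the anaphase-promoting complex were higher for 5 of 15 and cohesin genes for 2 of 11. What these arrays differed in was not tested. Without H-LY29 replicate 1 the members' median was -1.34, and without replicate 2 it was -2.11.

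**Figure D4:**
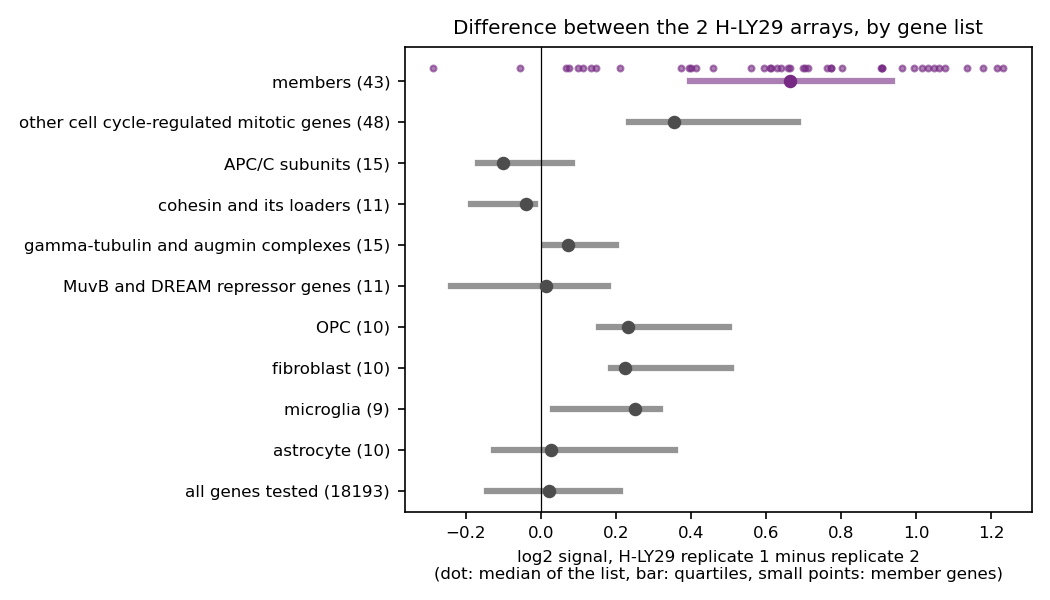
Difference in log2 signal between the 2 H-LY29 arrays (replicate 1 minus replicate 2) for gene lists, with the median (dot), the quartiles (bar), the number of genes in brackets and the single members as small points. The members' median of 0.66 lies to the right of those of the other lists shown, and the median of all genes lies at 0.02.

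Mitotic machinery outside the 43 genes was counted for comparison. Of 48 other cell cycle-regulated mitotic genes, 34 were lower and 4 higher, and 10 did not pass, with a median of -1.08. Examples were *Cdc25b*, the phosphatase that activates mitotic CDK, at -4.47, and the checkpoint gene *Kntc1* at -2.40, while the cytokinesis kinase *Cit* and *Arhgap11a* were higher, at 3.11 and 1.22. The lists that follow hold complexes that cells outside mitosis also use, and over all genes 35.6% were lower and 29.1% higher. Of 15 subunits of the anaphase-promoting complex, 9 were lower (*Cdc23* at -2.17, *Cdc27* at -1.95) and 4 higher (*Anapc13* at 1.53, *Anapc16* at 0.93), with a median of -0.23. Of 11 genes of cohesin and its loaders, 3 were lower (*Stag1* at -2.04, *Pds5b* at -1.86) and 6 higher (*Stag2* at 1.0, *Smc3* at 0.99), with a median of 0.42. Of 15 genes of the gamma-tubulin and augmin complexes, which nucleate spindle microtubules, 10 were lower (*Haus5* at -2.12, *Tubgcp4* at -1.88, *Tubgcp3* at -1.27, *Haus2* at -0.92) and 4 higher, with a median of -0.78. Of 11 genes of MuvB and the DREAM repressor, 5 were lower (*Lin9* at -2.21, *Lin37* at -1.65, *Rbbp4* at -1.14) and 3 higher (*Tfdp2* at 1.87), with a median of -0.35. The differences between these lists were not tested.

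Cell type markers are given beside the mitotic genes, and are to be read against the 35.6% of all genes that were lower and the 29.1% that were higher. Fibroblast markers were lower in L-LY29 for 10 of 10 genes, with mean signals of 7.48 to 8.04 against 10.23 to 10.61 in H-LY29. OPC markers were lower for 5 of 10 and higher for 3, with means of 7.25 to 7.62 against 7.90 to 8.27, and astrocyte markers lower for 5 of 10 and higher for 1, with means of 8.79 to 9.60 against 10.58 to 10.69. Pericyte and smooth muscle markers were lower for 5 of 10, and the others did not pass (5.79 to 6.10 against 6.73 to 6.78). Microglia markers were lower for 2 and higher for 6 of 9 (9.43 to 9.54 against 8.74 to 8.94), and endothelial markers lower for 1 and higher for 6 of 9 (7.15 to 7.52 against 6.39 to 6.41). Markers of mature oligodendrocytes, the main cell of this nerve, were bright at both doses (12.13 to 12.22 in L-LY29), with 3 lower and 6 higher of 9. Markers of ocular surface epithelium, a tissue outside the nerve, were higher for 9 of 10, at means of 10.59, 7.91 and 8.93 on the L-LY29 arrays against 4.27 and 3.94. The members' mean on the L-LY29 arrays was 5.63, 5.65 and 5.63, with 12 of the 43 genes at a L-LY29 mean in the poly-A range. The part of any cell type in the difference of the mitotic genes was not tested.

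In the promoter windows of RefSeq (250 bases before to 50 after the start, both strands searched), 36 of the 43 genes were found. The motifs were chosen after the results of the genes were known, and matches are descriptions. The CHR core TTTGAA occurred in 26 of the 36 genes (72.2%), against 20.2% of the 27025 genes in the promoter table and 15.7% of the 14452 tested genes found in it. Within 50 bases of the start it occurred in 24 (66.7%), against 4.09% of the tested genes. The CCAAT box occurred in 24 (66.7%), against 42.0% of tested genes, and both motifs together in 21 (58.3%), against 6.21%. Taken over single windows of the same length, TTTGAA was in 17.9% and CCAAT in 37.4% of all 32851. Genes lower in L-LY29 held TTTGAA in 21 of 28 cases and CCAAT in 21 of 28. Of the 5 genes higher in L-LY29 that were found, *Bub3*, *Ncapg2* and *Anln* held TTTGAA, *Pttg1* and *Ncaph* did not, and *Bub3* alone held CCAAT. The printed promoters were picked for a CHR core, so they show where the motifs lie and not how frequent they are. *Cdca5* carries 2 CHR cores. *Ube2c*, *Prc1*, *Top2a*, *Espl1* and *Cdc20* have a CCAAT box upstream of the CHR core, and *Cdc20* has another downstream of it. *Bub3* has 1 downstream of its core, and another that starts at -74, before the printed bases. *Ncapg*, *Ncapg2*, *Cdca5* and *Cep55* have none in these 70 bases. Among the other cell cycle-regulated mitotic genes, 20 of 41 held TTTGAA (48.8%) and 30 held CCAAT (73.2%).

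**Figure D5:**
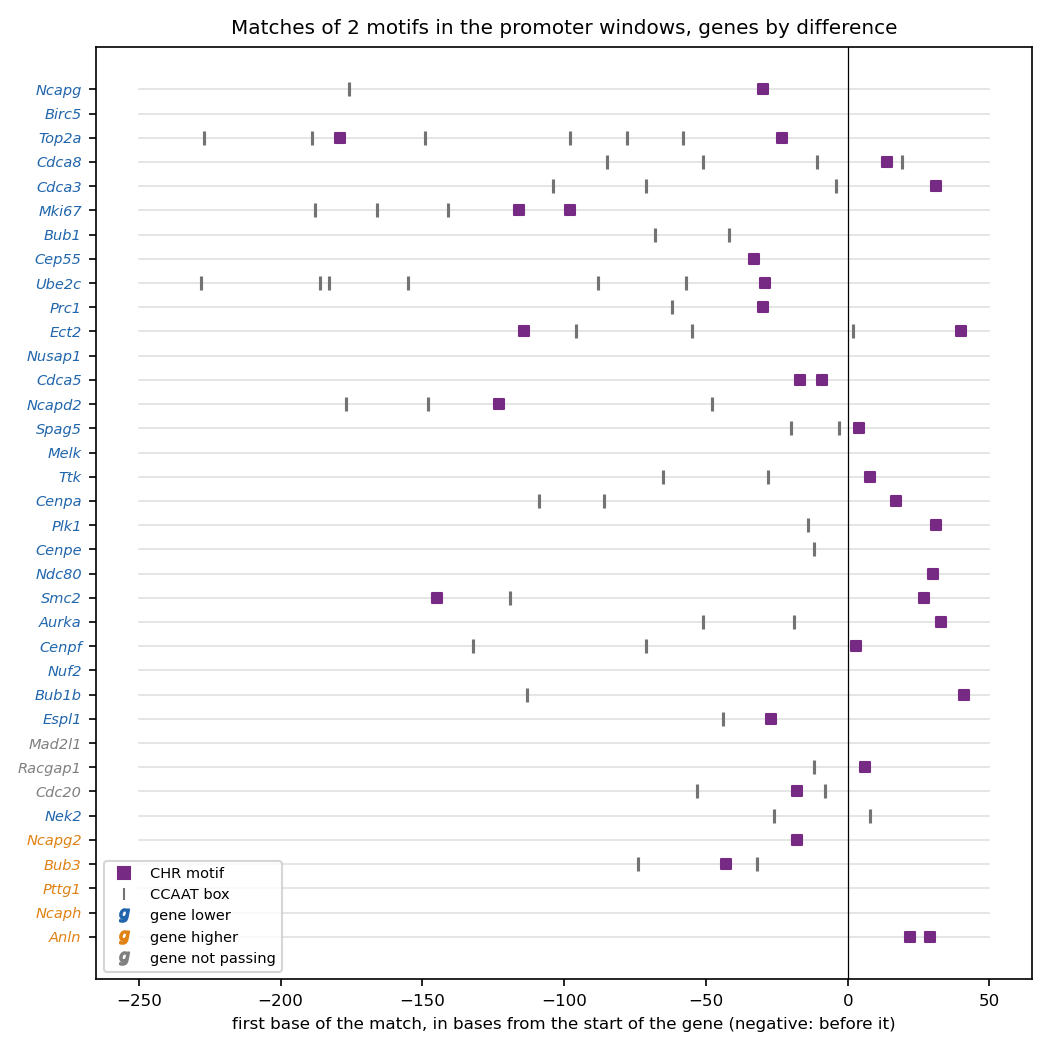
Matches of the CHR core (squares) and the CCAAT box (ticks) on either strand in 1 promoter window of each of the 36 genes found, against the distance from the start in bases, with genes ordered from the lowest difference (top) to the highest. Most squares lie within 50 bases of the start, and the bottom genes, which were higher in L-LY29, have few ticks.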

How the data were processed

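Optic nerve RNA was read on 5 Affymetrix mouse genome arrays, grouped by dose from the labels (3 L-LY29, 2 H-LY29). The authors deposited log2 signals, which their methods describe as MAS-5 values from GeneSpring GX 12; no source used here gives their scaling target. Values were used as deposited. The number of arrays limits the precision.

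Genes were fitted with limma 3.58.1 in R 4.3.3 (lmFit, eBayes with an intensity trend, two-sided) as L-LY29 minus H-LY29, and called at a Benjamini-Hochberg adjusted p under 0.05. Probe sets that name several genes (932) or none (9211) and control probe sets were left out, which kept 34945 probe sets and 18193 genes. No filter on low signal was used, so that no gene entered through the dose in which it was high, and all 43 members were fitted. The brightest probe set over the 5 arrays stood for its gene. This mean gives the 3 L-LY29 arrays more weight than the 2 H-LY29 arrays, so that the choice of probe set can depend on dose. For *Foxm1* the chosen probe set had means of 6.14 in L-LY29 and 5.38 in H-LY29. The one called lower had means of 5.43 and 6.11, and would be chosen with equal weight for both doses. The 100 member probe sets were also fitted singly, adjusted over the 34945, and p-values of further probe sets of a gene come from that fit. On simulated arrays of 18193 genes with 200 changed, changes of 0.5 log2 units were found for 3 of 77 genes, changes of 1 for 44 of 61 and changes of 2 for 61 of 62, with 4 false calls. Far more genes passed on the real arrays.

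Every member was named; of each other mitotic list, up to 4 genes with the smallest adjusted p, and *Spc24* and *Spc25* were added after their values were seen. Members, lists and alternatives were chosen with earlier results of these data known. Promoters and their coordinates are from RefSeq (GRCm38.p6); 7 members had no entry (*Dlgap5*, *Pbk*, *Aurkb*, *Incenp*, *Tpx2*, *Foxm1* and *Smc4*). Alternatives covered filters, scaling, a floor, the choice of probe set, the trend, a replicate block and leaving out each array.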

Additional observations from a re-analysis of the deposited data

How the results depend on the processing

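With 2 arrays at the high dose, single calls near the threshold depended on each array. Leaving out 1 array at a time gave a members' median of -2.11 to -1.34 log2 units. Without 1 of the L-LY29 arrays, 29 or 30 members were lower and 5 higher, while 31.6% to 32.2% of all genes were lower. The extremes came without H-LY29 replicate 1 (-1.34) and without H-LY29 replicate 2 (-2.11). Filters at the 40th and 60th percentile of mean signal fitted fewer members, 38 and 15, of which 27 and 10 were lower and 6 and 4 higher. Of all genes fitted there, 46.6% and 50% were lower, with medians of -0.26 and -0.32. Equal array medians gave 30 lower and 7 higher with a median of -1.5, and quantile normalization 30, 7 and -1.40. Over all genes 30.6% and 31.6% were lower. These scalings moved the median of all genes from -0.02 to 0.19 and to 0.05, and the share of calls that were higher from 45% to 59.2% and 52.7%. A floor at the 30th percentile gave 30 lower and 6 higher, and a fit with no intensity trend 32 and 6. Over all genes 33.4% and 35.6% were lower in these fits. Averaging the probe sets of a gene gave 31 lower, 3 higher and a median of -1.21, with 34.9% of all genes lower. This averaging turned *Bub3* to -0.14, *Smc4* to -0.30, *Foxm1* to -0.086 and *Cdca3* to 0.09. The second brightest probe set, an alternative added after seeing the data, gave 22 lower, 5 higher and a median of -0.68, with 30.2% of all genes lower. It turned *Bub3* to -0.45, *Incenp* to 0.065, *Ncapd2* to 0.18, *Ncaph* to -0.82, *Smc4* to -0.30, *Top2a* to 0.071, *Nek2* to 0.63, *Dlgap5* to 0.30, *Foxm1* to -0.68 and *Cdca3* to 2.59. *Cdc20* turned to 0.072 with quantile normalization and ran from -0.87 to 0.15 when 1 array was left out. The cause was not tested for any of these.

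Same-numbered arrays of both doses did not deviate together over the genes (correlations 0.00421 and 0.0143), and the labels do not say that a number marks a shared batch. A fit with the replicate block gave 29 lower and 4 higher with a median of -1.71, and 29.4% of all genes were lower. *Ncapg2*, *Aurka*, *Plk1*, *Nek2* and *Foxm1* then missed the threshold (adjusted p = 0.0587, 0.068, 0.0551, 0.11 and 0.0892).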

Other observations

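Some other mitotic genes outside the 43 are given by their values. *Sgo1* and *Sgo2a*, the shugoshins that protect centromeric cohesin, were lower in L-LY29 at -1.85 and -1.81 log2 units (adjusted p = 0.000527 and 0.000953, limma). *Hmmr*, a spindle-associated hyaluronan receptor, was lower at -2.09, *Plk4*, the kinase of centriole duplication, at -1.66, and *Tacc3*, a spindle stabiliser, at -1.52 (adjusted p = 0.000578, 0.0013 and 0.00222). *Mybl2*, the MYB factor that joins MuvB, read 4.16 and 3.95 in H-LY29 and 4.16, 4.36 and 4.16 in L-LY29 and did not pass (difference 0.17). *Knl1*, the kinetochore scaffold for Bub1 and Bub3, had a difference of -0.18 and *Ncapd3*, of condensin II, of -0.19; neither passed. These genes were chosen after their values were seen.

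Identical values on different arrays were frequent in the deposited table. Of the 45101 probe sets, 8199 to 8963 had the same value on both arrays of a L-LY29 pair, 1940 on the H-LY29 pair and 3206 to 3347 on a pair of different doses. Of the 100 member probe sets, 17 to 24 were equal on a L-LY29 pair, 4 on the H-LY29 pair and 3 to 11 on a pair of different doses. How the ties arose was not tested.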
